A study of Saccharomyces cerevisiae with 71 samples.

Results

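Removal of tryptophan from the medium of yeast lacking the Gcn2p kinase was followed on 6 of the 71 tRNA microarrays of the series. They are all the charging arrays labelled as the *gcn2*Δ strain in the Trp depletion experiment: 2 arrays of the reference at 0 min, and 4 arrays of cultures kept without Trp for 15 or 60 min. Each strain, medium and time is counted here as a culture, though whether the times came from separate flasks is not stated. Counted so, the cultures are 2 of the 26 depleted cultures in the series, and each was measured on a dye-swapped pair of arrays. Both arrays of a pair carry the same RNA, so that each time point is 1 replicate, and the values of the pair show technical spread alone.

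The *gcn2*Δ strain, WY799 (*MAT*α *gcn2::URA3 LEU2 TRP1*), differs from the wild-type strain, WY798 (*MAT*α *URA3 LEU2 TRP1*), by the deletion of *GCN2*. Both strains descend from EG328-1A and are prototrophic, that is, able to make every amino acid including Trp. Cells in mid-log growth were moved from synthetic complete (SC) medium with dextrose and ammonium sulfate to SC medium lacking only Trp. Phe, Tyr and all other amino acids thus stayed in the medium. The deletion rests on 1 strain, and the arrays hold tRNA probes only, so that the *GCN2* genotype could not be checked in these data. The cultures used for comparison came from the same strains after removal of His, removal of Arg, or removal of Arg with ornithine added, at the same times.

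Charging is the share of a tRNA that carries its amino acid, which an aminoacyl-tRNA synthetase attaches to the 3' end. In yeast, Gcn2p binds uncharged tRNA when an amino acid runs short and phosphorylates the initiation factor eIF2α. General translation then slows, while translation of the *GCN4* mRNA increases, and the Gcn4p activator turns on genes of amino acid synthesis. Trp, Phe and Tyr are made through a common pathway to chorismate. Its first enzymes, Aro3p and Aro4p, are inhibited by Phe and Tyr and are among the targets of Gcn4p. A strain without *GCN2* lacks the link from uncharged tRNA to Gcn4p.

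For each culture, RNA was divided in 2 portions. Periodate destroyed the 3' ends of uncharged tRNA in one of them, so that only charged tRNA was labelled there, while all tRNA was labelled in the other. The arrays hold 41 probes, named by amino acid and number. The files do not say which of Met-5 and Met-6 reads the initiator tRNA, and probes are given here by their names. The values are ratios of charged and total tRNA relative to the reference array with matching strain and dye. The labels do not give the order of the ratio, as set out below. Both reference arrays are exactly 1 for all 41 probes, so that they give no spread, and each array was scaled by the authors to a median near 1 (0.995 to 1.01 on the 4 depleted arrays). A log2 charging change is therefore relative to the middle tRNA of the array, and the charged percentage of a tRNA is not known.

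The direction of the arrays with total tRNA in Cy5 is likely but not settled. As deposited, the Cy5 array at 60 min ran opposite to its Cy3 partner, with a Pearson correlation of -0.90 over the 41 probes and -0.76 over the 40 without Trp-3. At 15 min the correlation was -0.32 over all probes but -0.12 without Trp-3, so that there the opposition rests mainly on that probe. Without Trp-3, Met-6, Pro-5 and Ala-5, which were chosen after their values were seen, the correlation of the other 37 probes was -0.50 at 60 min and 0.21 at 15 min. The Cy5 ratios of the Trp experiment were accordingly turned, that is, replaced by their inverse, before the pair was averaged. As deposited, the arrays of a pair cancel for Trp-3, and its difference from cultures that kept Trp would be -0.11 at 60 min (adjusted p = 0.937 by limma). The labels give the dye of total tRNA but not the order of the ratio, and a lower Cy3 value was read as less charging, as in the study's own display of the data. The wild-type Cy5 arrays were turned as well, where the correlation as deposited was -0.55 at 15 min but only -0.22 at 60 min (-0.17 without Trp-3). For the main probes the value of the Cy3 array, which needs no turning, is given beside the turned one, whereas means of a pair, and counts and medians made from them, depend on the turning.

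Charging of tRNA-Trp, the cognate tRNA of the removed amino acid, fell in the *gcn2*Δ strain by 15 min and much further by 60 min. The deposited ratio of Trp-3 at 15 min was 0.525 on the Cy3 array and 2.14 on the Cy5 array, which is 0.467 once turned. These are log2 changes of -0.94 and -1.10, with a mean of -1.02, or 2.03-fold lower charging than at 0 min. At 60 min the ratio was 0.0709 on the Cy3 array and 14.4 on the Cy5 array, 0.0694 once turned. The log2 changes were -3.81 and -3.85, with a mean of -3.83, or 14.2-fold lower charging. The arrays of the pair differed by 0.16 at 15 min and by 0.04 at 60 min, far less than the change itself.

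**Figure D1:**
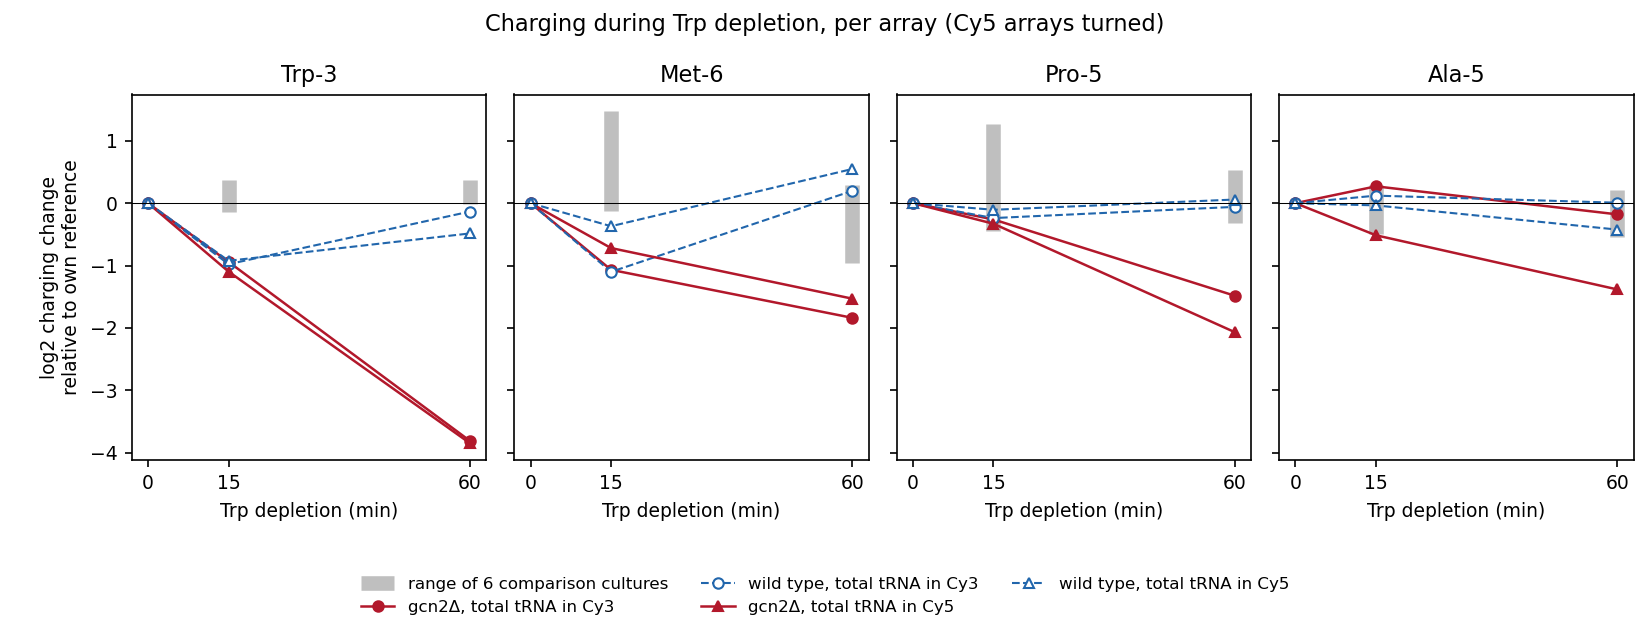
Log2 charging change (vertical axis) against minutes of Trp depletion (horizontal axis) for 4 tRNAs, with 1 line per array in the *gcn2*Δ strain (red, solid) and the wild-type strain (blue, dashed), circles for total tRNA in Cy3 and triangles for total tRNA in Cy5 (turned), and grey bars for the range of the 6 comparison cultures. The red lines of Trp-3 reach -3.81 and -3.85 at 60 min, while the blue lines stand at -0.13 and -0.48.

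With 1 culture at each time, the spread was taken from 6 cultures of the same time point whose medium kept Trp, and the lone culture was assumed to vary like them. The test was limma's moderated test, and a tRNA was called at a Benjamini-Hochberg adjusted p below 0.05 over the 41 probes. In the 6 comparison cultures, the lowest, median and highest log2 change of Trp-3 were -0.14, 0.08 and 0.38 at 15 min. The Trp-depleted culture lay below all of them, with a difference from their mean of -1.09 ± 0.19 (SE, adjusted p = 0.0256 by limma). Of the 41 tRNAs, Trp-3 was the 1 called at 15 min, which is 2.44% of those tested. With the Cy3 arrays alone the difference was -1.03 but the adjusted p was 0.198, and 0% of the tRNAs were called by limma, with 1 at an unadjusted p below 0.05. The call at 15 min was also lost without the wild-type Arg culture (adjusted p = 0.0778), the wild-type Arg and ornithine culture (0.0737) or the *gcn2*Δ His culture (0.0809).

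At 60 min the comparison cultures held Trp-3 at -0.01, 0.12 and 0.38 (lowest, median and highest). The difference of the Trp-depleted culture from their mean was -3.96 ± 0.16 (SE, adjusted p = 3.0e-06 by limma). Here 2 tRNAs of 41 were called (4.88%), Trp-3 and Pro-5. The Cy3 arrays alone gave a Trp-3 difference of -3.88 with an adjusted p of 4.2e-06, and also called 4.88%, in that case Trp-3 and Met-6. The exact two-sided permutation test of 1 culture against 6 gave p = 0.143 for Trp-3 at either time, which is the smallest p this design allows.

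Between 15 and 60 min, charging of Trp-3 changed by a further -2.87 on the Cy3 array and -2.75 on the Cy5 array. The mean of -2.81 is a 7.01-fold lower charging at 60 than at 15 min. The same step in the 6 comparison courses had a lowest, median and highest value of -0.21, 0.04 and 0.46, and the difference from their mean was -2.86 ± 0.24 (SE, adjusted p = 0.000288 by limma). Trp-3 was the 1 tRNA of 41 called in the course (2.44%). The log2 change per minute was similar in both intervals, at -0.0679 from 0 to 15 min and -0.0625 from 15 to 60 min. Expressed as a halving time, this is 14.7 min and 16.0 min for the mean, 15.9 and 15.7 min on the Cy3 arrays, and 13.7 and 16.4 min on the Cy5 arrays. The value at 0 min is 0 by construction, and with 3 time points the shape of the course within the intervals is not known. The paper's own time course of this strain, at various Trp concentrations, gave a longer time to the first halving.

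In the wild-type strain, in which Gcn2p is intact, the Trp-3 value at 15 min was nearly the same as in the *gcn2*Δ strain, but at 60 min the strains had parted. The wild-type arrays read -0.98 (Cy3) and -0.92 (Cy5, turned) at 15 min, and -0.13 and -0.48 at 60 min. The mean was thus -0.95 at 15 min and -0.31 at 60 min. The *gcn2*Δ minus wild-type difference was -0.07 at 15 min. In the experiments without His, without Arg, and without Arg but with ornithine the same strain difference of Trp-3 was between -0.11 and 0.27 at 15 min. The contrast between the Trp experiment and these 3 experiments was -0.21 ± 0.35 (SE, adjusted p = 0.957 by limma), and 0% of the 41 tRNAs were called at 15 min, with 0 at an unadjusted p below 0.05. At 60 min the strain difference of Trp-3 was -3.52, against 0.11 to 0.23 in the other 3 experiments. The contrast was -3.69 ± 0.13 (SE, adjusted p = 0.00179 by limma), and Trp-3 was the 1 tRNA called (2.44%). The exact two-sided permutation p was 0.25 at 60 min, the smallest that 1 experiment against 3 allows.

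Among the other 40 probes, a few lay far from the array median at 60 min, while the middle of the distribution kept its width. On the Cy3 array the interquartile range over all 41 probes was 0.45 at 15 min and 0.41 at 60 min. The Cy5 array gave 0.24 at both times. The SD without Trp-3 was 0.34 and 0.47 on the Cy3 array, and 0.23 and 0.50 on the Cy5 array. On the Cy3 array 36 probes were within 0.5 of the median at 15 min and 34 at 60 min. At 60 min Trp-3, Met-6, Pro-5, Tyr-3 and Lys-4 were below -0.5 there, and His-3 and Ile-5 were above 0.5. In the mean of the pair with the Cy5 array turned, 39 and 35 probes were within 0.5 at the successive times. By that mean 6 were below -0.5 at 60 min, namely Trp-3, Pro-5, Met-6, Ala-5, Gly-7 and Lys-4, and none was above 0.5. With the Cy5 array turned, 9 of the 41 probes were lower on both arrays at 15 min, 9 were higher on both, and 21 had opposite signs. As deposited, 21 had the same sign at 15 min and 18 had opposite signs. At 60 min 15 were lower on both arrays and 15 higher with the Cy5 array turned, and 9 had opposite signs. By the mean of the pair, Trp-3 stood 0.13 below the next lowest probe at 15 min and 2.05 below it at 60 min.

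**Figure D2:**
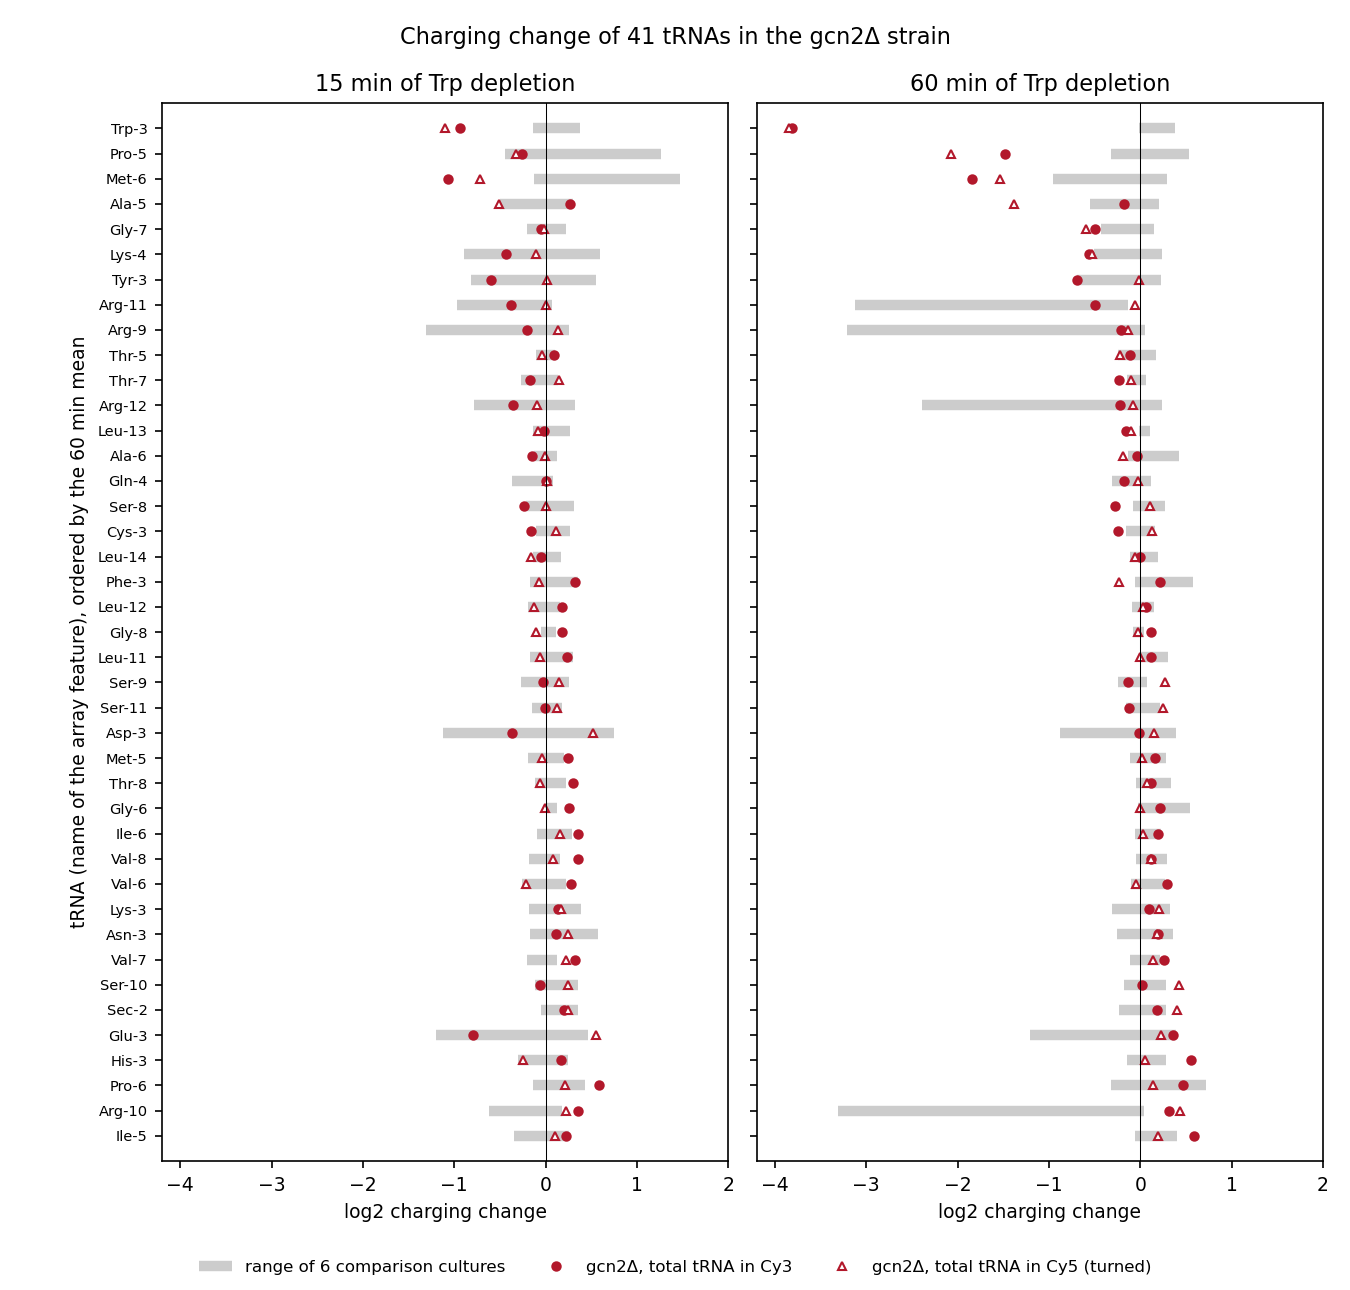
Log2 charging change (horizontal axis) of all 41 tRNAs (vertical axis, ordered by the mean at 60 min) in the *gcn2*Δ strain after 15 min (left) and 60 min (right) of Trp depletion, with filled circles for the Cy3 array, open triangles for the turned Cy5 array, and grey bars for the range of the 6 comparison cultures. At 60 min Trp-3, Pro-5 and Met-6 lie below -1 on both arrays and 35 tRNAs have a mean within 0.5 of 0; the long grey bars of the Arg probes come from the cultures depleted of Arg.

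A probe for tRNA-Met, Met-6, was low at both times, while the other Met probe was not. Methionyl-tRNA serves initiation through one tRNA and elongation through another, both charged by the same synthetase. Met-6 read -1.07 (Cy3) and -0.72 (Cy5, turned) at 15 min, the lowest of the 41 probes on the Cy3 array and the second lowest, after Trp-3, in the mean. At 60 min it read -1.84 and -1.53, with a mean of -1.68, or 3.21-fold lower charging. The comparison cultures held Met-6 at -0.13, -0.01 and 1.48 at 15 min and at -0.96, -0.12 and 0.29 at 60 min (lowest, median and highest). The Trp-depleted culture lay below all 6 at both times, but the difference did not pass the test at 15 min (-1.21 ± 0.56, SE, adjusted p = 0.960 by limma) or at 60 min (-1.52 ± 0.42, adjusted p = 0.121). The outcome at 60 min changed when 1 comparison culture was left out. Without the *gcn2*Δ Arg and ornithine culture, which read -0.96, the difference was -1.68 with an adjusted p of 0.0093 by limma. With the Cy3 arrays alone it was -1.86, with an adjusted p of 0.0047.

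Met-5 read 0.24 and -0.04 at 15 min and 0.16 and 0.02 at 60 min. The Met probes thus lay 0.99 apart at 15 min and 1.78 apart at 60 min. In the wild-type strain Met-6 averaged -0.73 at 15 min and 0.37 at 60 min (-1.10 and 0.20 on the Cy3 arrays). The strain difference of Met-6 at 60 min was -2.06, against -0.77 to 0.13 in the other experiments, and the contrast of -1.78 ± 0.43 (SE) had an adjusted p of 0.282 by limma. It was called in 2 of the 10 alternatives with the Cy5 arrays turned. Among them was the one without the Arg experiment (-1.74, adjusted p = 0.0184 by limma), with only the His and the Arg with ornithine experiments left to compare. From 15 to 60 min Met-6 went lower by 0.77 and 0.81 on the 2 arrays, within the -1.31 to 0.29 of the comparison courses.

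Charging read by Pro-5, a tRNA-Pro probe, fell at 60 min. It was -0.26 and -0.33 on the 2 arrays at 15 min, inside the comparison range of -0.44 to 1.27. At 60 min it was -1.48 and -2.07, with a mean of -1.78, or 3.42-fold lower charging. The comparison cultures read -0.32, -0.13 and 0.53 there (lowest, median and highest). The difference was -1.80 ± 0.34 (SE, adjusted p = 0.0244 by limma). The call was lost with the Cy3 arrays alone (-1.62, adjusted p = 0.0700) and without the His experiment (-1.77, 0.105) or the Arg with ornithine experiment (-1.92, 0.0506). The step from 15 to 60 min was -1.22 on the Cy3 array and -1.48 in the mean. The difference of that mean from the comparison courses was -1.27 ± 0.47 (SE, adjusted p = 0.422), and the strain contrast at 60 min was -1.42 ± 0.45 (adjusted p = 0.455), neither of which passed limma's test. The strain contrast was called in 1 of the 10 alternatives with the Cy5 arrays turned. That was the one without the Arg experiment (-1.59, adjusted p = 0.0296 by limma), with only the His and the Arg with ornithine experiments left to compare.

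The other tRNA-Pro probe, Pro-6, was among the highest of all probes. It read 0.58 and 0.22 at 15 min and 0.47 and 0.13 at 60 min. At 60 min the Pro probes stood 2.08 apart in the mean and 1.95 on the Cy3 array, and the Met probes 1.78 and 2.00. These were the widest spans, in an order that depends on the Cy5 array, among the 11 amino acids that have more than 1 probe. In the other 9 the span at 60 min was at most 0.70 in the mean and 0.80 on the Cy3 array. In the wild-type strain Pro-5 read -0.24 at 15 min and -0.06 at 60 min on the Cy3 arrays, and averaged -0.17 and 0.00.

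The dye arrays disagreed on Ala-5. It read 0.27 on the Cy3 array but -0.51 on the turned Cy5 array at 15 min, and -0.18 and -1.38 at 60 min. Both arrays moved the same way from 15 to 60 min, by -0.45 and -0.87, below the comparison courses of -0.31 to 0.13. The difference at 60 min was -0.70 ± 0.26 (SE, adjusted p = 0.347 by limma) and that of the course was -0.60 ± 0.18 (adjusted p = 0.253). Ala-6, the other tRNA-Ala probe, averaged -0.08 and -0.11 at the successive times.

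Gly-7 and Lys-4 were low at 60 min with close agreement of the arrays. Gly-7 read -0.05 and -0.01 at 15 min and -0.49 and -0.60 at 60 min, below the comparison range of -0.43 to 0.15. Lys-4 read -0.44 and -0.11 at 15 min and -0.56 and -0.53 at 60 min, also below the comparison range of -0.50 to 0.24. The lower end of that range is the *gcn2*Δ culture without Arg, a condition in which the paper reports lowered tRNA-Lys charging. The next lowest, the *gcn2*Δ culture without Arg but with ornithine, read -0.34. Neither probe passed the test at 60 min (adjusted p = 0.773 for Gly-7 and 0.838 for Lys-4 by limma). The second Lys probe, Lys-3, averaged 0.15 at both times, and the remaining Gly probes, Gly-6 and Gly-8, were between 0.04 and 0.12 at both times.

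**Figure D3:**
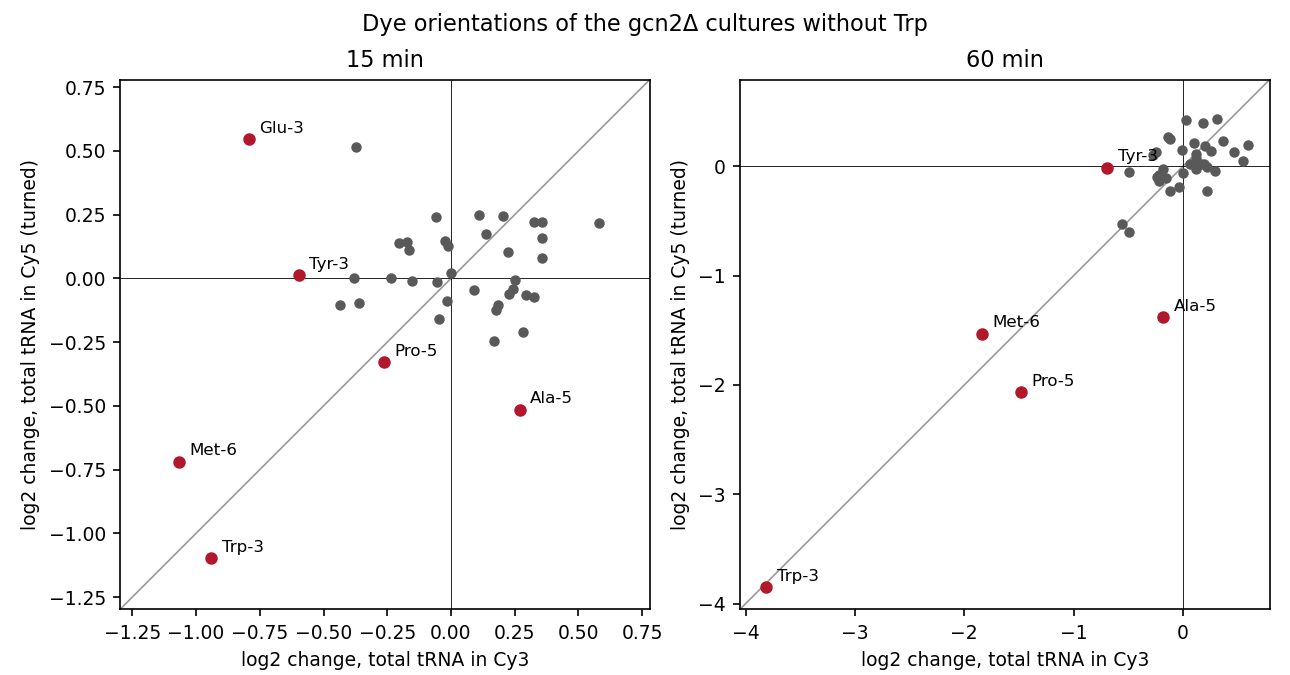
Log2 charging change on the turned Cy5 array (vertical axis) against the Cy3 array (horizontal axis) of the same *gcn2*Δ culture, 1 point per tRNA, at 15 min (left) and 60 min (right) of Trp depletion. Red points are named probes, and on the grey diagonal both arrays agree, as Trp-3 nearly does at 60 min, while Ala-5 read -0.18 in Cy3 and -1.38 in Cy5.

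With the Cy5 arrays turned, 8 probes were lower than the array median on both arrays at both times (Trp-3, Met-6, Pro-5, Lys-4, Gly-7, Arg-12, Ala-6 and Leu-13) and 9 were higher (Arg-10, Asn-3, Ile-5, Ile-6, Lys-3, Pro-6, Sec-2, Val-7 and Val-8). At 15 min the turned arrays agreed in sign for 18 probes and disagreed for 21, so that membership of these lists is uncertain. Yeast is not known to have a selenocysteine tRNA, and the files do not say which tRNA the probe named Sec-2 reads. From 15 to 60 min, 17 tRNAs went lower on both arrays and 6 went higher, while the arrays disagreed for 18. The step was within 0.5 for 36 of the 41. The highest mean at 60 min was that of Ile-5, which read 0.59 and 0.20 on the arrays, followed by Arg-10 with 0.31 and 0.43. His-3 had 0.55 and 0.05, and Glu-3 0.36 and 0.23. At 15 min Glu-3 had read -0.79 on the Cy3 and 0.55 on the Cy5 array, the widest disagreement named here. Centring on the array median fixes about as many tRNAs above 0 as below, and no tRNA was called higher. The tests of the Arg and His probes at these times use cultures from which Arg or His had been removed, and were not read.

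Phe and Tyr, which share the chorismate pathway with Trp, stayed in the medium. Charging of Phe-3 was 0.32 (Cy3) and -0.07 (Cy5, turned) at 15 min and 0.22 and -0.23 at 60 min. The mean was 0.13 and then -0.01, and the comparison range at 60 min was -0.05 to 0.58. Tyr-3 was -0.60 and 0.01 at 15 min and -0.69 and -0.01 at 60 min, so that its low Cy3 values were not seen in Cy5. Its mean of -0.35 at 60 min lay within the comparison range of -0.70 to 0.23, whose lower end is the *gcn2*Δ culture without Arg. Without that culture the range was -0.31 to 0.23, and Tyr-3 lay just below it. Neither tRNA passed limma's test at either time. The strain contrast of Phe-3 at 60 min, -0.76 ± 0.18 (SE), had an unadjusted p of 0.0206 and an adjusted p of 0.282, with the wild-type Phe-3 mean at 0.38.

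The *gcn2*Δ strain was also deprived of Trp, Tyr and Phe at once, in another experiment with its own reference, and the values are set side by side without a test. Trp-3 then read -0.08 at 15 min and -0.46 at 60 min, where a dye-swapped pair was averaged as deposited, against -1.02 and -3.83 without Trp alone. Met-6 read -0.16 and 0.02 there, and Pro-5 -0.48 and 0.04. Phe-3 read -0.40 and -0.59, and Tyr-3 -0.64 and -0.18. At 15 min that culture had a Cy3 array alone, whose Trp-3 value compares with -0.94 on the Cy3 array of the culture without Trp alone. At 60 min, whether the arrays of the averaged pair ran opposite to each other was not examined. An opposed pair averaged as deposited would cancel, so all the 60 min values of that culture are uncertain.

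The non-cognate tRNAs were also grouped by the amino acid in the probe name. Over all 40 non-cognate probes, the median was 0.03 at 15 min and 0.05 at 60 min. The Cy3 arrays gave 0.04 and 0.01. At 60 min, 4 of 8 probes for small amino acids (Ala, Cys, Gly, Pro) were lower on both arrays and 1 was higher, with a median of -0.08 and Pro-5 as the 1 called. The 11 probes for Ile, Leu, Met and Val had 2 lower and 6 higher, with a median of 0.09. The 8 charged ones (Arg, Asp, Glu, Lys) had 4 lower and 3 higher, with a median of -0.04. The 10 polar ones (Asn, Gln, His, Ser, Thr) had 3 lower and 4 higher, with a median of 0.06. Split by the fold of the synthetase, 8 of the 20 probes of class I amino acids, Trp-3 among them, were lower on both arrays and 8 were higher. In the 20 of class II, 7 were lower and 6 were higher. The median at 60 min was 0.04 in class I without Trp-3 and 0.06 in class II. Among all 41 probes, 15 were lower and 15 higher. These counts, and the group medians, use the turned Cy5 arrays.

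Abundance of tRNA was measured in the *gcn2*Δ strain on a dye-swapped pair of arrays of the culture after 60 min against the reference. The ratios were read as 60 min over reference, an order that the sample titles do not give. All 41 tRNAs were within 0.5 of the array median on the log2 scale, between -0.30 and 0.36. Trp-3 was the lowest of them, with ratios of 0.792 and 0.832 and log2 values of -0.34 and -0.27, far smaller in size than its charging change of -3.83. Pro-5 was the highest, at 0.29 and 0.43, and Met-6 stood at -0.06 and 0.11. With 1 pair of cultures and a self-comparison array that is exactly 1 throughout, these values have no test. Over the 41 tRNAs the Pearson correlation of abundance with charging was 0.10, and over the 40 without Trp-3 it was -0.37, in both cases across tRNAs that share their arrays and are not independent replicates.

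**Figure D4:**
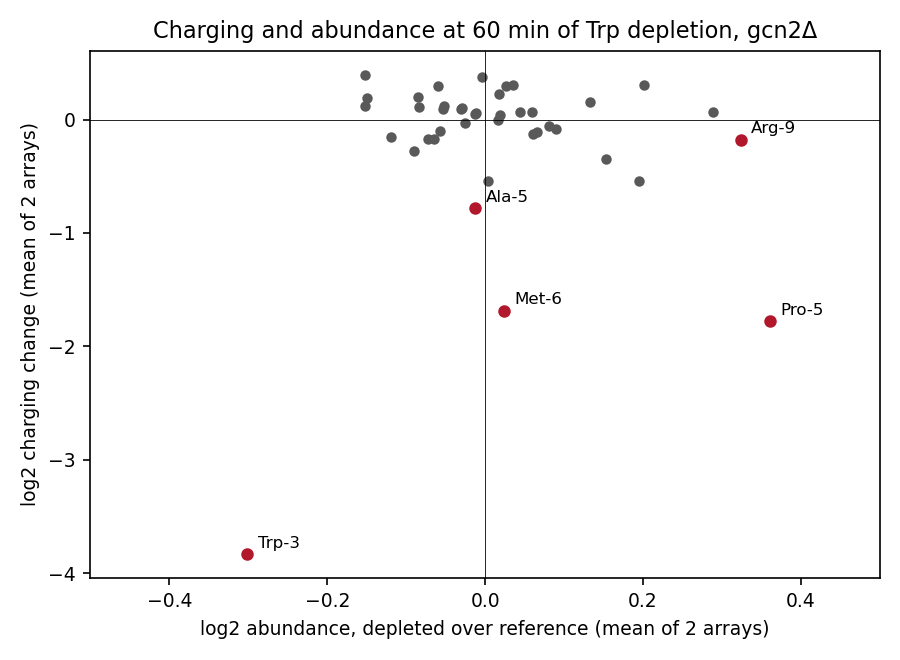
Log2 charging change (vertical axis) against log2 tRNA abundance, 60 min over reference (horizontal axis), for the 41 tRNAs of the *gcn2*Δ strain after 60 min of Trp depletion, each the mean of 2 dye-swapped arrays. Trp-3 lies at -3.83 in charging and -0.30 in abundance, and Pro-5 at -1.78 and 0.36.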

How the data were processed

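For each array, the authors deposited linear ratio values of 41 probes, scaled to an array median near 1. Charging arrays hold ratios of charged and total tRNA relative to the reference array of that experiment, strain and dye. They were read as charged over total tRNA, and the Cy5 arrays of the Trp experiment as the inverse. Abundance arrays were read as the ratio of depleted to reference culture, an order that the sample titles do not give. The tRNA was labelled at its 3' end by ligation, and *E. coli* tRNA standards were added to the RNA. Whether they entered the scaling, and which scanner and background correction were used, is not given in the sources used here, so that signal over background is not known. No value was missing, and 0 columns belonged to no sample.

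From the ratios, log2 was taken with no pseudocount and no filter. The 4 depleted Cy5 arrays of the Trp experiment (both strains) were turned, the median of each array was subtracted, and dye-swapped pairs were averaged. Most comparison cultures also had a dye-swapped pair, and those of the Arg with ornithine experiment had partly a Cy3 array alone. Tests used limma 3.58.1 (lmFit and eBayes, R 4.3.3) with Benjamini-Hochberg adjustment over 41 probes, on 1 culture or course against 6 and on 1 strain difference against 3. The paper's methods name no test. Time points share a reference, and whether they came from separate flasks is not stated.

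Named tRNAs are Trp-3, the Met, Phe and Tyr probes, those called, and at each time the 5 lowest and 5 highest among those with the same sign on both arrays. Others were chosen after their values were seen. The members, lists and tests were chosen with earlier results of these data known. Alternatives were the Cy3 arrays alone, the Cy5 arrays as deposited, the centring, the set of comparison cultures, strain as a covariate, and no variance moderation. The number of arrays limits the precision.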

Additional observations from a re-analysis of the deposited data

Results flagged for a closer look

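The change of Trp-3 charging from 15 to 60 min differed between the Trp-depleted *gcn2*Δ course and the 6 comparison courses by -2.86 (adjusted p = 0.000288 by limma), and it was negative on both arrays. The *gcn2*Δ minus wild-type difference of Trp-3 at 60 min differed between the Trp experiment and the other 3 experiments by -3.69 (adjusted p = 0.00179 by limma). Both were picked out because the effect of 1 group differed from that of others in a test of the difference itself. With 1 culture per condition, no group was large enough to look for outlying samples.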

How the results depend on the processing

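Trp-3 was called at 60 min and in the course under all 18 alternatives with the Cy5 arrays turned (highest adjusted p 0.0017 and 0.022), and in the strain difference at 60 min under all 10 (0.0457). With those Cy5 arrays as deposited the arrays of a pair cancel: the counts called at 15 min, at 60 min, in the course and in the strain difference at 60 min were 0, and Trp-3 stood at 0.0034, -0.11, -0.11 and -0.33. Met-6 was then 0.0079 at 60 min, 0.49 in the course and 0.30 in the strain difference, Pro-5 0.27, 0.46 and 0.70, and Ala-5 0.68 at 60 min and 0.27 in the course. At 15 min Trp-3 was called in 9 of the 18. The count there was 0, and the difference -1.03 with the Cy3 arrays alone, -1.06 with centring on the array mean, -1.16 with *gcn2*Δ comparison cultures alone, -1.13 without the His experiment, -1.14 without the Arg with ornithine experiment, and -1.09 with no variance moderation. With each comparison culture left out in turn it was between -1.14 and -1.03, with 0 to 1 tRNAs called. At 60 min 1 tRNA was called, Trp-3, with strain as a covariate, without the His experiment and with no variance moderation. In the strain difference at 60 min 2 were called with centring on the array mean and 3 without the Arg experiment. The cause of these changes was not tested.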
